A study of Saccharomyces cerevisiae with 4 samples.

Results

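The iron uptake regulon of budding yeast was followed here through 10 genes: FET3, FTR1, FRE1, FRE3, FIT1, FIT2, FIT3, SIT1, ARN1 and AFT1. These were picked by name and not by a cut-off on measured values, but with earlier results of these data known. They are 10 of the 6692 open reading frames in the count table, and all 10 passed the filter on low counts. The study asked which transcripts are carried by nuclear mRNPs (messenger ribonucleoprotein particles) isolated through the mRNP biogenesis factors Sub2 and Hpr1, compared with the RNA of the whole cell. Both kinds of library came from a single strain, BY4741 in which SUB2 is tagged (sub2-FLAG-3C-ProtA::kanMX4) and so is HPR1 (hpr1-TS::hphNT1), so that eluates and lysates alike carry both tagged genes and no untagged strain was analysed here. The 2 eluates hold RNA of the particles released with biotin after both affinity steps. The 2 lysates hold total RNA taken before the first step, and ribosomal RNA was depleted from both kinds of sample. All cells were grown in YPD, a rich medium, to an absorbance near 1, and the labels name no iron chelator and no added iron. The regulon was therefore not compared between iron states, and every difference below is one between the 2 RNA pools.

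Iron is scarce in soluble form, and yeast takes it up through a reductive and a siderophore route. In the first, surface reductases of the Fre family turn ferric into ferrous iron, which the multicopper oxidase Fet3 and the permease Ftr1 import together. In the second, mannoproteins of the cell wall (Fit1, Fit2 and Fit3) help to retain siderophores, iron chelates made by other microbes, and transporters of the Arn family carry them in. Aft1 is the transcription factor that switches on these genes when iron is low. Its activity is held down in iron-replete cells through iron-sulfur clusters, the glutaredoxins Grx3 and Grx4, and the proteins Fra1 and Bol2 (also called Fra2).

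The libraries held 11448755 to 29903666 counts. All 4 libraries had 0 counts for LEU2, MET17 and URA3, genes deleted in BY4741. Genes of MATa cells (STE2, STE6, MFA1, MFA2 and BAR1) lay between 11.0 and 1819 CPM (counts set to a common library size, adjusted with TMM factors). Of 3 genes of MATalpha cells, STE3 and MF(ALPHA)1 were at or below 1.86 CPM, while SAG1 had 143 and 136 CPM in the eluates and 6.80 and 8.30 CPM in the lysates. The labels call the libraries of a fraction replicates and the study calls them biological. With 2 libraries against 2, the smallest two-sided p of an exact permutation test is 0.333, and the adjusted p-values rest on a spread shared across genes. Fold changes compare shares of each RNA pool and cannot tell more molecules of a transcript in the particles from fewer of the others, nor more cells with a transcript from more of it per cell. Strand-specific libraries were made, but how the counting treated strand and reads with several matches is not stated in the sources used here. None of the 10 members overlaps another reading frame, and each is listed as 1 uninterrupted block.

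In the lysates the members spanned a wide range of levels. Per kb of coding length, FET3 was highest at 887 ± 58.6 CPM (SD, n = 2), followed by FRE1 at 567 ± 27.3 CPM per kb. FTR1 (294 ± 10.1) and SIT1 (264 ± 33.8 CPM per kb) came next, and their libraries overlapped. FIT2 (111 ± 58.6) overlapped ARN1 (75.0 ± 9.71 CPM per kb). FRE3 stood at 27.6 ± 2.98 CPM per kb. AFT1 (15.6 ± 4.57) overlapped FIT3 (13.9 ± 4.44 CPM per kb). FIT1 was lowest at 1.03 ± 0.140 CPM per kb. Against 5774 nuclear protein-coding genes tested, this ran from percentile 96.95 for FET3 to percentile 1.68 for FIT1. The oxidase and the main surface reductase were thus among the abundant mRNAs of these cells, and FIT1 was among the rarest.

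The order differed in the eluates. FET3 (646 ± 7.29 CPM per kb) and FRE1 (540.2 ± 21.9 CPM per kb) again led. They were followed by AFT1 at 291 ± 18.5 CPM per kb, above SIT1 at 227 ± 15.2. FIT3 came next at 165 ± 66.2 CPM per kb, and its libraries overlapped those of FTR1 (111 ± 15.9). FRE3 (61.6 ± 3.22), ARN1 (38.3 ± 5.30), FIT2 (26.04 ± 11.2) and FIT1 (16.7 ± 0.520 CPM per kb) followed, without overlap between neighbours. AFT1 moved from percentile 20.1 of all nuclear protein-coding genes in the lysate to percentile 94.98 in the eluate, and FIT3 from 17.9 to 86.2. FIT2 went the other way, from percentile 78.0 to 35.2.

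**Figure D1:**
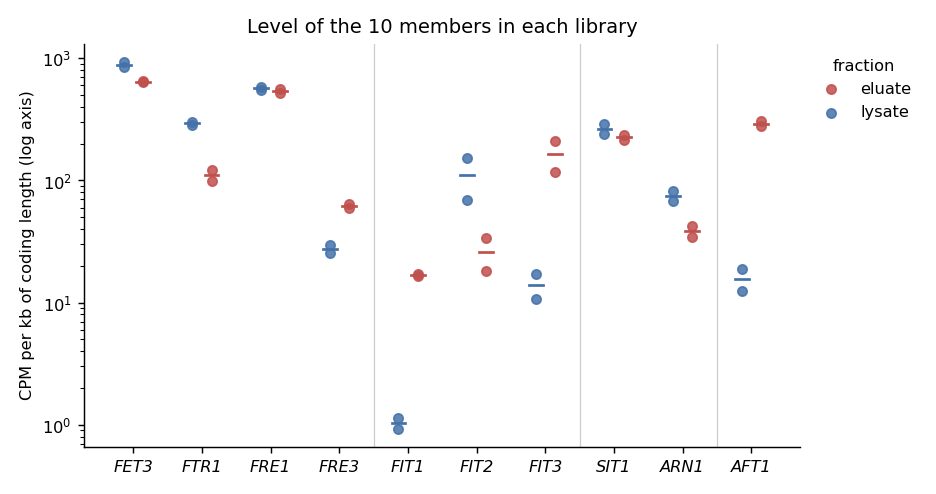
CPM per kb of coding length (log axis) of each member in each library, with red points for the 2 eluates, blue points for the 2 lysates and a short line at each mean. AFT1, FIT1 and FIT3 lie higher in the eluates, FTR1, FIT2 and ARN1 lower, and the FRE1 libraries of both fractions overlap.

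Together the 10 members held 0.386% of the counts in eluate 1 and 0.340% in eluate 2 (95% exact binomial intervals 0.384% to 0.389% and 0.338% to 0.342%). They held 0.445% in lysate 1 and 0.409% in lysate 2 (0.441% to 0.448% and 0.405% to 0.413%). These intervals treat each read as independent and cover counting error alone, not the spread between libraries. The reads carry no molecular identifiers, so that copies of a read could not be told apart. Both lysates were above both eluates (two-sided p = 0.333, exact permutation test). What filled this share differed. FET3 supplied 42.0% and 42.4% of the members' counts in lysates 1 and 2, and 31.1% and 33.0% in the eluates. AFT1 supplied 0.608% and 1.02% in the lysates, against 15.8% and 15.5% in the eluates.

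Gene by gene, the regulon did not move in one direction. At an adjusted p under 0.05 from edgeR's quasi-likelihood test, 4 of 10 members were higher in the eluate (AFT1, FIT1, FIT3 and FRE3), 4 were lower (FIT2, FTR1, ARN1 and FET3), and SIT1 and FRE1 did not pass. Of all 6191 genes tested, 44.2% were called higher and 44.8% lower (89.0% in either direction), so that the members' shares are close to the background. The median log2 fold change of the members was -0.15, against -0.01 over all genes tested, with single members from -2.12 to 4.23. In 9 of 10 members the eluates did not overlap the lysates in CPM. Over all genes tested this held for 94.4%, with both eluates above both lysates in 46.9% and below them in 47.5%. Of all genes, 15.0% were over 4-fold higher with an adjusted p under 0.05, and AFT1, FIT1 and FIT3 were among them.

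AFT1, the gene of the regulator itself, was the most enriched member. It (YGL071W) lies on chromosome VII from 372012 to 374084 (sacCer3). It had 13659 and 15795 counts in eluates 1 and 2 (631 and 577 CPM), and 400 and 480 counts in lysates 1 and 2 (25.7 and 39.0 CPM). Both eluates were far above both lysates, and the ratio of library 1 to library 2 was 0.657 in the lysates and 1.09 in the eluates. The mean rose from 32.3 ± 9.47 to 604 ± 38.4 CPM (SD, n = 2 each), an 18.8-fold difference (log2 fold change 4.23, standard error 0.163, adjusted p = 2.00e-12, edgeR). Of 5774 nuclear protein-coding genes tested, 121 had a log2 fold change at least as large, AFT1 included. With 1 library left out at a time, its log2 fold change ranged from 3.95 to 4.55. AFT2, the paralogue of AFT1 with overlapping targets, had 46.1 and 39.8 CPM in the eluates and 49.2 and 40.3 CPM in the lysates. These overlapped, and AFT2 did not pass (log2 fold change -0.06, standard error 0.118, adjusted p = 0.609, edgeR).

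Of 4 genes whose products report iron status to Aft1, 3 fell and 1 rose, beside 44.8% and 44.2% of all genes tested. GRX3, a monothiol glutaredoxin, had 12.3 and 10.9 CPM in the eluates and 133 and 118 CPM in the lysates (log2 fold change -3.44, standard error 0.113, adjusted p = 3.62e-13, edgeR). BOL2, its partner, had 12.4 and 11.3 CPM against 108 and 92.0 CPM (log2 fold change -3.08, standard error 0.117, adjusted p = 1.70e-12, edgeR). The other glutaredoxin gene, GRX4, fell by 1.05 on the log2 scale, while FRA1 rose by 0.75 log2 units. Regulators of the same pathway thus lay at both ends, with AFT1 enriched and GRX3 and BOL2 depleted. The coding lengths differ as well, with 2073 bases for AFT1, 2250 for FRA1, 858 for GRX3, 735 for GRX4 and 363 for BOL2. Each was therefore set against the median of the 200 nuclear protein-coding genes nearest in coding length. AFT1 stood above it by 3.35 log2 units, while GRX3 and BOL2 stood at -2.90 and -1.44. GRX4 and FRA1 were near it, at 0.058 and -0.21. Level in the lysate was not matched for GRX3, BOL2, GRX4 and FRA1. For several members, matching on it too changed the sign of this difference.

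The genes of the high-affinity uptake complex were both lower in the eluate, to different extents. FET3 (YMR058W), the ferroxidase, lies on chromosome XIII from 388822 to 390732. It had 26937 and 33541 counts in the eluates (1244 and 1224 CPM) and 27654 and 19855 counts in the lysates (1773 and 1615 CPM). The fractions did not overlap, and FET3 fell by 0.46 in log2 fold change (standard error 0.118, adjusted p = 0.00211, edgeR). FTR1 (YER145C), the permease, lies on chromosome V from 460526 to 461740. It had 3213 and 3318 counts in the eluates (148 and 121 CPM) and 5708 and 4287 in the lysates (366 and 349 CPM), and it fell by 1.41 log2 units (standard error 0.110, adjusted p = 7.98e-09, edgeR). To compare both genes free of library scaling, their ratio per kb was taken within each library. There were 5.33 and 6.43 FET3 counts per FTR1 count per kb in the eluates, where the lysates had 3.08 and 2.94. The ratio was higher in both eluates than in both lysates, by 1.94-fold on average (exact permutation test, two-sided p = 0.333, also after adjustment over the 5 ratios computed). The vacuolar counterparts had the other order. FET5, a vacuolar oxidase, fell by 1.12 log2 units and FTH1, its permease partner, by 0.29. FTH1 no longer passed without eluate 1 (adjusted p = 0.102, edgeR) or without lysate 1 (adjusted p = 0.112, edgeR).

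Fet3 is loaded with copper in the secretory pathway, and the genes of that supply lay far apart. ATX1, a cytosolic copper chaperone with a coding length of 222 bases, had 30 and 44 counts in the eluates (1.39 and 1.61 CPM) and 686 and 471 in the lysates (44.0 and 38.3 CPM). It had the lowest log2 fold change among the iron genes examined (-4.77, standard error 0.165, adjusted p = 6.48e-13, edgeR). CCC2, the copper pump that receives copper from Atx1, has a coding length of 3015 bases. It rose by 1.61 log2 units, from 168 and 134 CPM in the lysates to 466 and 459 CPM in the eluates (standard error 0.114, adjusted p = 2.55e-09, edgeR). CCC2 overlaps a reading frame on the opposite strand at each end, so that its counts are uncertain. Both genes were also set against the median of the 200 nuclear protein-coding genes nearest in coding length. ATX1 stood below that median, at -2.04 log2 units, while CCC2 was near it, at 0.088. Level in the lysate was not matched for either gene.

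The reductase genes FRE1 to FRE6, those listed here as Aft1 or Aft2 targets, have nearly equal coding lengths, from 2061 to 2160 bases, and differed widely in enrichment. FRE1 (YLR214W), the main surface reductase, lies on chromosome XII from 568567 to 570627. It had 24796 and 29626 counts in the eluates (1145 and 1082 CPM) and 18858 and 13891 in the lysates (1209 and 1130 CPM). The fractions overlapped and FRE1 did not pass (log2 fold change -0.07, standard error 0.113, adjusted p = 0.557, edgeR). FRE3 (YOR381W), a reductase of siderophore-bound iron, lies on chromosome XV from 1055545 to 1057680. It had 2953 and 3470 counts in the eluates (136 and 127 CPM) and 989 and 669 in the lysates (63.4 and 54.4 CPM), and it rose 2.23-fold (log2 fold change 1.16, standard error 0.0987, adjusted p = 2.36e-08, edgeR). Within libraries, FRE1 exceeded FRE3 per kb by 19.8 and 21.5 times in the lysates and by 8.70 and 8.85 times in the eluates. The gap between them was thus narrower in both eluates (two-sided p = 0.333 by exact permutation, also when adjusted).

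FRE2, FRE4, FRE5 and FRE6 were also higher in the eluate, as were 44.2% of all genes tested. FRE5 had the largest log2 fold change among them (3.11, standard error 0.129, adjusted p = 4.63e-12, edgeR), from 70.1 and 53.0 CPM in the lysates to 536 and 529.9 CPM in the eluates. FRE2, another surface reductase, went from 10.8 and 10.7 CPM to 63.1 and 52.7 CPM and rose by 2.42 log2 units (standard error 0.128, adjusted p = 7.12e-11, edgeR). FRE4 rose by 1.52 log2 units and the vacuolar reductase gene FRE6 by 1.28. Against the median of the 200 genes nearest in coding length, FRE5 and FRE2 stood at 2.19 and 1.53 log2 units. FRE4, FRE6 and FRE3 stood at 0.63, 0.38 and 0.26 by that measure, and FRE1 at -1.01. That median was itself 0.90 for FRE2, FRE3, FRE4 and FRE6. FRE7, which was listed with the copper genes and has a coding length of 1863 bases, had 134 and 124 CPM in the eluates and 148 and 132 CPM in the lysates. The fractions overlapped, and FRE7 did not pass (log2 fold change -0.12, standard error 0.0942, adjusted p = 0.232, edgeR).

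The 3 genes of siderophore-retaining wall proteins split in opposite directions. FIT1 (YDR534C) lies on chromosome IV from 1503314 to 1504900. It had 588 and 712 counts in the eluates (27.2 and 25.99 CPM) but 23 and 22 counts in the lysates (1.47 and 1.79 CPM). FIT1 rose 16.4-fold (log2 fold change 4.03, standard error 0.181, adjusted p = 1.08e-11, edgeR), and its lysate level rests on these few counts. FIT3 (YOR383C) lies on chromosome XV from 1060441 to 1061055. It had 2818 and 1988 counts in the eluates (130.2 and 72.6 CPM) and 163 and 81 in the lysates (10.5 and 6.59 CPM). FIT3 rose 11.7-fold (log2 fold change 3.54, standard error 0.2499, adjusted p = 2.34e-09, edgeR). FIT2 (YOR382W) lies on chromosome XV from 1059531 to 1059992. It had 340 and 229 counts in the eluates (15.7 and 8.36 CPM) and 1096 and 393 in the lysates (70.3 and 32.0 CPM). Both eluates were below both lysates, and FIT2 fell by 2.12 in log2 fold change (standard error 0.297, adjusted p = 7.31e-06, edgeR), or 4.35-fold. This size depended on single libraries. With 1 left out at a time, FIT2 ranged from 2.698-fold lower (without lysate 1) to 5.99-fold lower (without eluate 1).

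FIT2 and FIT3 changed places between the fractions. Per kb, FIT2 exceeded FIT3 by 8.95 and 6.46 times in lysates 1 and 2. In the eluates FIT3 exceeded FIT2 by 6.23 and 6.52 times. The ratio of the pair shifted 48.4-fold between the fractions, and this shift does not depend on library scaling (exact permutation test, two-sided p = 0.333, also when adjusted over the 5 ratios). The ratio of FIT1 to FIT2 shifted 67.7-fold toward FIT1 in the eluates (two-sided p = 0.333 by exact permutation, also when adjusted). It shifted 41.4-fold without lysate 1 and 110.5-fold without lysate 2.

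FIT2 and FIT3 are also neighbours, pointing toward each other with 448 bases between their coding ends. FRE3 lies 1850 bases before FIT2, with the small reading frame YOR381W-A between them, and FRE5 begins 508 bases beyond FIT3. Each of the reading frames around FIT2 was higher in the eluate. On one side RDR1, FRE3 and YOR381W-A had log2 fold changes of 1.84, 1.16 and 1.61. On the other, FIT3, FRE5 and YOR385W had 3.54, 3.11 and 0.54. FIT2 was the one reading frame of these 7 that was lower. Of all genes tested, 44.2% were called higher and 44.8% lower. Against the median of genes nearest in coding length, FIT2 stood at -0.13 log2 units with the 200 nearest and -0.53 with the 100 nearest. With the 200 nearest, RDR1, FRE3 and YOR381W-A stood at 1.52, 0.26 and 3.94 log2 units. FIT3, FRE5 and YOR385W stood at 5.22, 2.19 and 1.11. Convergent neighbours are told apart by strand where their transcripts overlap, and the strand setting was not stated.

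**Figure D2:**
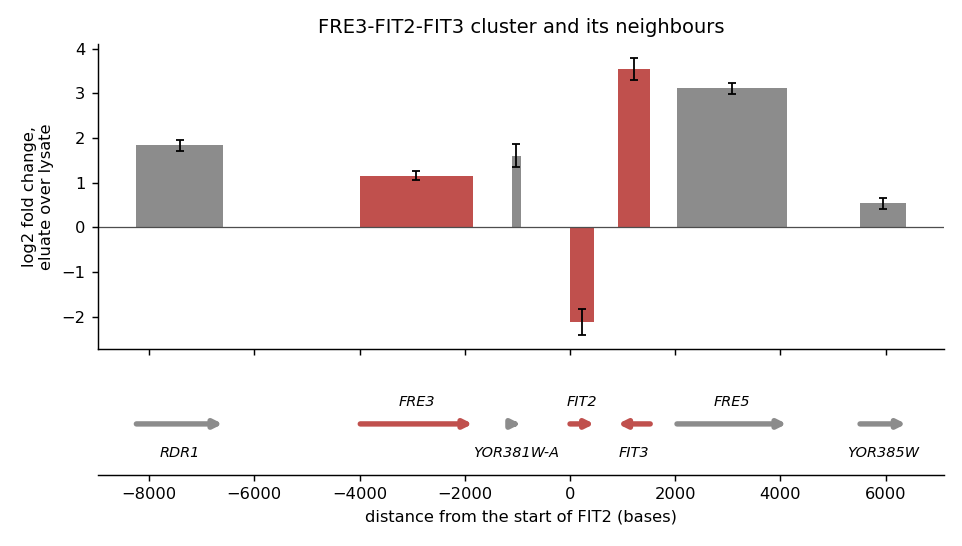
Log2 fold change in eluate over lysate (upper panel, bars as wide as the coding region, error bars one standard error) and direction of transcription (lower panel, arrows) against the distance in bases from the start of FIT2. Red marks members and grey their neighbours, and FIT2 is the one bar below 0, at -2.12, next to FIT3 at 3.54.

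The siderophore transporter genes were alike in coding length, from 1821 to 1887 bases, and did not move together. SIT1 (YEL065W), the transporter of ferrioxamine B, lies on chromosome V from 27657 to 29543. It had 9698 and 11158 counts in the eluates (448 and 407 CPM) and 8477 and 5574 in the lysates (544 and 453 CPM). Although the fractions did not overlap, SIT1 did not pass (log2 fold change -0.22, standard error 0.113, adjusted p = 0.0765, edgeR). Without lysate 2 it did (log2 fold change -0.35, adjusted p = 0.00410, edgeR). ARN1 (YHL040C), the ferrichrome transporter, lies on chromosome VIII from 19088 to 20971. It had 1714 and 1782 counts in the eluates (79.2 and 65.1 CPM) and 2405 and 1578 in the lysates (154 and 128 CPM), and it fell by 0.97 log2 units (standard error 0.113, adjusted p = 8.95e-07, edgeR). SIT1 exceeded ARN1 per kb by 5.65 and 6.25 times in the eluates, against 3.52 and 3.53 times in the lysates (two-sided p = 0.333 by exact permutation, also when adjusted).

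The remaining family members lay on either side of these. ENB1, the enterobactin transporter, had 102 and 89.8 CPM in the eluates and 445 and 314 CPM in the lysates, and fell by 1.99 log2 units (standard error 0.141, adjusted p = 2.47e-09, edgeR). ARN2, which carries triacetylfusarinine C, rose by 0.77 log2 units (standard error 0.134, adjusted p = 6.67e-05, edgeR), from 51.0 and 35.6 to 78.2 and 70.7 CPM. ARN2 overlaps a reading frame on the opposite strand, and near-identical stretches among transporters of one family could share reads, so that its value is uncertain. Against the median of the 200 genes nearest in coding length, ARN2 stood at 0.084 log2 units and ENB1 at -2.68. Here too, level in the lysate was not matched.

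Beyond the members, 28 genes of the pathway were examined. They were 19 other targets of Aft1 or Aft2 and 9 genes of Aft regulation, iron sensing or iron use inside the cell. In edgeR's test 14 of these 28 rose and 12 fell (adjusted p under 0.05), while AFT2 and MRS4 did not pass. These shares of 14 and 12 of 28 again compare with 44.2% and 44.8% of all genes. Their median log2 fold change was 0.23. The 3 highest were FRE5, FRE2 and CCC2, and the 3 lowest were ATX1, GRX3 and BOL2. Among targets that act inside the cell, HMX1, the heme oxygenase that recovers iron from heme, rose by 0.88 log2 units (standard error 0.125). TIS11 (also called CTH2), whose product promotes decay of mRNAs of iron-consuming proteins, rose by 0.40 log2 units (standard error 0.125, adjusted p = 0.00784, edgeR). The call on TIS11 was lost without eluate 1 (adjusted p = 0.126, edgeR) and with library sizes alone (adjusted p = 0.183, edgeR).

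**Figure D3:**
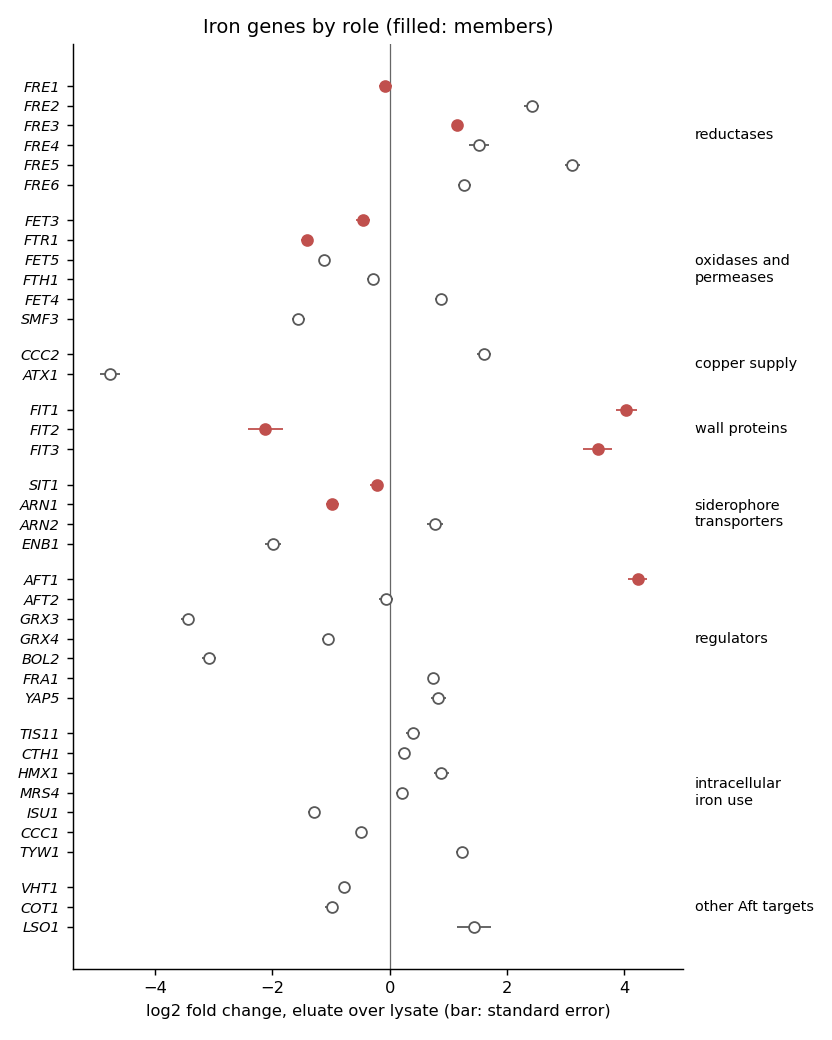
Log2 fold change in eluate over lysate (points, with bars of one standard error) for the 10 members (filled red) and the 28 other pathway genes (open), grouped by role. Values run from ATX1 at -4.77 to AFT1 at 4.23, and the 3 wall protein genes, at 4.03, 3.54 and -2.12, lie on both sides of 0.

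Coding length goes with enrichment across these libraries, and the members were therefore set against genes of like length. The study also reported enrichment of transcripts with short half-lives, which appeared to be separate from that of length. Half-lives were not examined here. In 5 length classes of nuclear protein-coding genes, the median log2 fold change was -1.86 in the shortest, -0.95, -0.30 and 0.53 in the next 3, and 1.56 in the longest. FIT2 and FIT3 fall in the shortest class, FTR1 in the middle one, FRE3 in the longest and the other 6 members in the class below it. Each member was compared with the median of the 200 genes nearest to it in coding length. FIT3, FIT1 and AFT1 stood above that median by 5.22, 3.62 and 3.35 log2 units, and FRE3 by 0.26. ARN1 had a difference of -1.74, FET3 of -1.30, FTR1 of -1.11, FRE1 of -1.01, SIT1 of -0.97 and FIT2 of -0.13. With the 100 nearest genes instead, FIT2 stood at -0.53 and FIT3 at 5.25. How near FIT2 lay to genes of its length thus depended on their number, while FIT3 was far above them with either.

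These differences changed when the 200 genes were also matched on level in the lysate. FIT3, AFT1 and FIT1 were still above, by 3.76, 2.74 and 2.67 log2 units, and ARN1 was still below at -1.11. FRE1, FET3, SIT1, FIT2 and FTR1 then had 1.23, 1.08, 0.65, 0.41 and 0.13, and FRE3 had -0.09. The sign for these 6 members therefore depended on the genes they were compared with. Level in the lysate and fold change share the lysate counts, and no test was made.

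**Figure D4:**
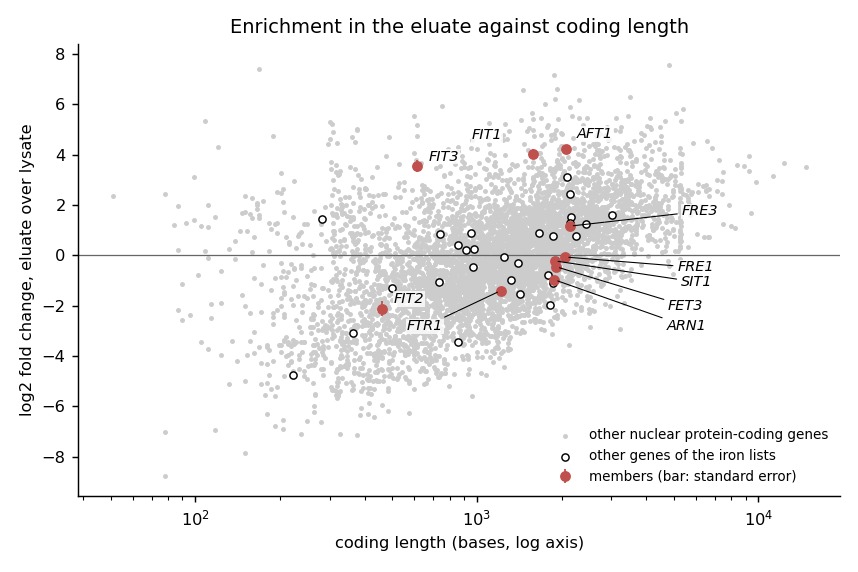
Log2 fold change in eluate over lysate against coding length in bases (log axis) for nuclear protein-coding genes (grey), the 28 other pathway genes (open circles) and the 10 members (red, with bars of one standard error). FIT3, FIT1 and AFT1 lie near the upper edge of the cloud at 3.54, 4.03 and 4.23, and FIT2 lies within it at -2.12.

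Library 1 exceeded library 2 by more for FIT2 and FIT3 than for nearly all genes, in both fractions. FIT2 was 1.88 times higher in eluate 1 than in eluate 2, and 2.20 times higher in lysate 1 than in lysate 2. FIT3 was 1.79 times higher in eluate 1 and 1.59 times higher in lysate 1. Percentiles were taken on the signed log2 ratio of library 1 over library 2, with 1 count added. They do not rank differences by size alone. FIT2 and FIT3 lay at percentile 99.5 and 99.4 of all genes tested between the eluates, and at percentile 99.7 and 98.95 between the lysates. Both genes were thus higher in the library numbered 1 of either fraction. The comparison was chosen after the values were seen.

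The other members differed less between libraries of a fraction. All 10 members were higher in eluate 1 than in eluate 2, at a median log2 difference of 0.13, and 8 of 10 were higher in lysate 1 than in lysate 2, at a median of 0.18. Of the other pathway genes, 20 of 28 and 26 of 28 were higher in eluate 1 and in lysate 1. Over all 6191 genes the shares were 51.7% and 60.0%, with medians of 0.01 and 0.05. The exceptions in the lysates were AFT1 and FIT1, with log2 differences of -0.61 and -0.28. Whether libraries with the same number come from the same culture is not stated. Across all genes tested, deviations of same-numbered libraries from their fraction's mean had a Pearson's r of -0.04, as a description.

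**Figure D5:**
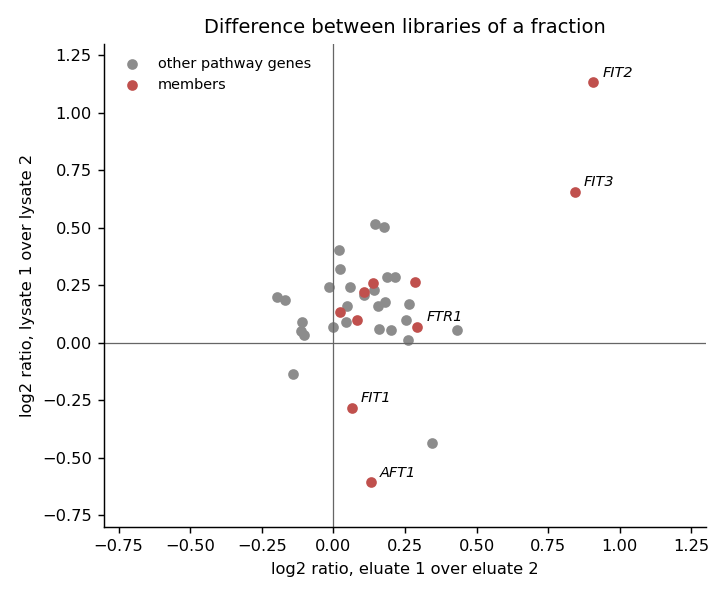
Log2 ratio of lysate 1 over lysate 2 against that of eluate 1 over eluate 2 (CPM, 1 count added) for the 10 members (red) and the 28 other pathway genes (grey). FIT2 (0.91 and 1.13 for eluates and lysates) and FIT3 (0.84 and 0.66) stand apart at the upper right, and AFT1 (0.13 and -0.61) lies lowest.

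Genes for uptake and handling of copper and zinc were taken as comparable metal regulons. Of 7 copper genes tested, 3 rose and 3 fell by the same criterion, with log2 fold changes from -2.81 for CTR2, a vacuolar copper transporter, to 1.76 for CTR3, a high-affinity one. The gene CUP1-1 had 0 counts in all 4 libraries and was not tested. It overlaps a reading frame on the opposite strand. How strand and reads with several matches were counted is not stated, so that 0 counts need not mean no expression. Of 8 zinc genes, 3 were higher and 5 lower, from -3.06 for IZH2 to 3.14 for ZAP1, the zinc-responsive activator. The medians were -0.12 for copper and -0.41 for zinc, beside -0.15 for the iron members. These counts stand beside 44.2% of all genes called higher and 44.8% called lower. The difference between regulons was not tested.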

How the data were processed

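For 2 eluates and 2 lysates, the values used are read counts that the authors deposited for each open reading frame of sacCer3, without normalization. The submitters' processing notes name STAR 2.7.9a, featureCounts and Subread 2.0.3. A deposited DESeq2 1.38.3 comparison of eluate and lysate (fold changes and p-values) was not used. A RefSeq gene table (assembly R64) gave symbols and matched 6008 of the 6692 identifiers.

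The test was edgeR's quasi-likelihood F-test (edgeR 4.0.16, R 4.3.3, TMM factors, default expression filter, fraction as sole term), with Benjamini-Hochberg adjustment over all 6191 genes tested, two-sided. The code was checked on simulated data with few changed genes and the same spread for every gene. These libraries differ in that most genes were called, so that the check does not cover their setting. Standard errors were derived by dividing the size of the log2 fold change by the root of F. Ratios and shares used exact permutation tests (scipy 1.17.1, Python 3.11.15).

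All members are reported. Of the other pathway genes, paralogues and partners, the copper suppliers CCC2 and ATX1, the 3 highest and 3 lowest, HMX1 and TIS11 are named, with the neighbours of the chromosome XV cluster and the highest and lowest copper and zinc genes. GRX4, FRA1, MRS4 and FRE7 were named after their values were seen. Members and lists were chosen with earlier results of these data known. Alternatives were RLE factors, library sizes alone, other filters, DESeq2 1.42.0, limma-voom (limma 3.58.1), a replicate block and each library left out. Promoter motifs and sequences were not analysed here.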

Additional observations from a re-analysis of the deposited data

How the results depend on the processing

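Of 110 alternative values for the members' log2 fold changes, 107 kept their direction and side of the threshold, and 3 passed where the reported value did not (SIT1 without lysate 2, and SIT1 and FRE1 with library sizes alone, at -0.40 and -0.25). Library sizes alone shifted the median of all genes by -0.18. The members' median log2 fold change was then -0.32 and that of the other pathway genes 0.050. With at least 10 CPM in 2 libraries the members' median was -0.091. With 1 library left out it ranged from -0.24 to -0.056, and that of the other pathway genes from 0.13 to 0.33. Single libraries left in a fraction were assumed to vary like the others. The members' median difference from the 200 genes of like length was -0.55. It was -0.38 with at least 10 CPM, -0.74 with the 100 nearest genes, and -0.84 to -0.24 with 1 library left out. It turned to 0.86 with matching on lysate level too, where FRE1 (1.23), FET3 (1.08), SIT1 (0.65), FIT2 (0.41), FTR1 (0.13) and FRE3 (-0.091) also changed sign. The cause was not tested. With 1 library left out, AFT2 ranged from -0.20 to 0.088 and turned positive without eluate 2 (0.027) or lysate 1 (0.088), and with library sizes alone it was -0.24. Among the other pathway genes, 9 further values fell short of the threshold and 3 newly passed. A replicate block by library number, which the sources do not describe as a pairing, gave 4 members higher and 4 lower and 2730 genes higher and 2769 lower in all, and changed no member's call. Depth limits FIT1, with 23 and 22 lysate counts.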
